A study of Mus musculus with 12 samples.

Results

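The transcripts described here are those of 32 genes that take up glucose, split it to pyruvate and export lactate, chosen by symbol from the 25239 gene symbols of the 2 deposited count tables. They comprise the glucose carriers Slc2a1, Slc2a3 and Slc2a4, the enzymes from the hexokinases Hk1 and Hk2 to the lactate dehydrogenases Ldha and Ldhb, the regulatory bifunctional enzymes Pfkfb1 to Pfkfb4, the lactate carriers Slc16a1 and Slc16a3, the kinase Pdk1 and the transcription factor Hif1a. All 32 symbols stood in both tables. The RNA came from mouse heart cardiomyocytes, extracted from cultured cells, in 12 libraries of 4 groups with 3 libraries each. The Chaf1a cko mice carry Myh6-Cre; Chaf1af/f, in which a Cre recombinase under the cardiomyocyte promoter of Myh6 cuts floxed alleles of Chaf1a, the gene of the large subunit of the histone chaperone CAF-1. The Ctrl mice carry the same floxed alleles, Chaf1af/f, without Cre, and their genotype is labelled WT. The Chaf1a cko and Ctrl libraries make up 1 table, called the first set here, and the Chaf1a cko 3M and Ctrl 3M libraries the other, called the 3M set. What 3M stands for is not said, no age is given, and nothing states that each library is a separate animal, so the p-values measure the spread between libraries, which may be partly technical. The comparison asks which steps of glucose use differ in transcript level between cardiomyocytes with and without the Cre allele, within each table.

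Glycolysis splits glucose to pyruvate in the cytosol and yields ATP without oxygen. The heart of the fetus and newborn relies on it heavily, whereas the adult heart draws most of its energy from fatty acids in the mitochondria. Most steps are served by several isoenzymes encoded by different genes, of which muscle and heart prefer some (Slc2a4, Hk2, Pfkm, Pgam2, Eno3), while others are widespread or typical of growing cells (Slc2a1, Hk1, Pfkl, Pgam1, Eno1). Many of these genes are textbook targets of HIF-1, the oxygen-sensitive factor whose alpha subunit is encoded by Hif1a.

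The targeted transcript did not differ past the threshold in either set. Chaf1a had 28.97, 24.5 and 21.9 CPM in libraries labelled Chaf1a cko, against 22.7, 32.3 and 18.8 CPM in Ctrl libraries, and the groups overlapped (log2 fold change 0.03, SE 0.18, 95% interval -0.36 to 0.42, adjusted p = 0.981 by edgeR's quasi-likelihood test, the test behind every adjusted p given here unless another is named). It had 8.33, 5.58 and 5.53 CPM in libraries labelled Chaf1a cko 3M, against 1.87, 4.73 and 9.74 CPM in Ctrl 3M libraries, again with overlap (log2 fold change 0.25, SE 0.61, adjusted p = 0.952). The counts cover the whole gene and not the deleted stretch, so the deletion itself was not tested and the libraries are described by their labels. Libraries held 15068468 to 20896673 counts in the first set and 10569325 to 16445963 in the 3M set. The spread between libraries of 1 group was wider in the 3M set, where the median coefficient of variation of genes above 1000 counts was 13.99% in Chaf1a cko 3M and 19.6% in Ctrl 3M, against 5.29% in Chaf1a cko and 5.65% in Ctrl. All 10 cardiomyocyte markers had counts in both sets. First-set libraries also had counts for 94.7 to 97.5% of 1545 chemoreceptor genes, which the heart should hardly express, and 3M libraries for 1.23 to 1.68%.

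In the first set 6 members rose in libraries labelled Chaf1a cko and none fell (edgeR's quasi-likelihood test, adjusted over 22965 genes). Of all genes tested 1.18% were called in either direction and 0.74% as higher, against 18.8% of the members. The genes behind these shares were not matched to the members by level of expression. The 6 were Gpi1, Aldoa, Pgk1, Eno1, Pkm and Ldha, which stand at separate steps from the isomerase to lactate dehydrogenase. No member was called at the steps of Pfkm, Tpi1, Gapdh and Pgam2, which lie between them. Their differences were modest, with log2 fold changes of 0.24 to 0.53. The other 26 did not pass the test. The groups did not overlap for 18 members that were higher and 1 that was lower in Chaf1a cko (59.4% of the members). Of all genes tested 16.2% showed no overlap, 8.33% higher and 7.85% lower. At an unadjusted p under 0.05 there were 15 higher and 1 lower member, with 10.1% of all genes below that value, 5.63% higher and 4.5% lower. The log2 fold change was above 0 for 25 of the 32 members, with a median of 0.15, whereas it was above 0 for 49.1% of all genes, with a median of -0.01. The members' summed level was 5678, 5802 and 5759 CPM in Chaf1a cko libraries, against 5003, 4862 and 4869.5 CPM in Ctrl libraries.

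In the 3M set none of the 30 members tested was called in either direction by edgeR, where 0.0144% of 13925 genes were, 0.00718% higher and 0.00718% lower. DESeq2's Wald test called 1 member, Slc2a4, as higher. At an unadjusted p under 0.05, 4 members were higher (Slc2a4, Pfkl, Pfkm and Slc16a1) and 1 was lower (Pfkfb1), and 6.93% of all genes lay below that value, 3.2% higher and 3.73% lower. The groups did not overlap for 4 higher and 2 lower members, 20% of the members tested beside 14.1% of all genes tested, 7.21% higher and 6.89% lower. The log2 fold change was above 0 for 14 of the 30 members and for 48% of all genes, and its median was -0.03 over the members and -0.02 over all genes. The summed level of the members was 5588, 5124 and 5135 CPM in Chaf1a cko 3M libraries, against 5272, 4627 and 5966 CPM in Ctrl 3M libraries, which overlap. The other 2 members, Aldoc with 0 counts in all 6 libraries and Pklr with counts in 1, were too low to test, and a count of 3 would have been 0.177 to 0.281 CPM.

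**Figure D1:**
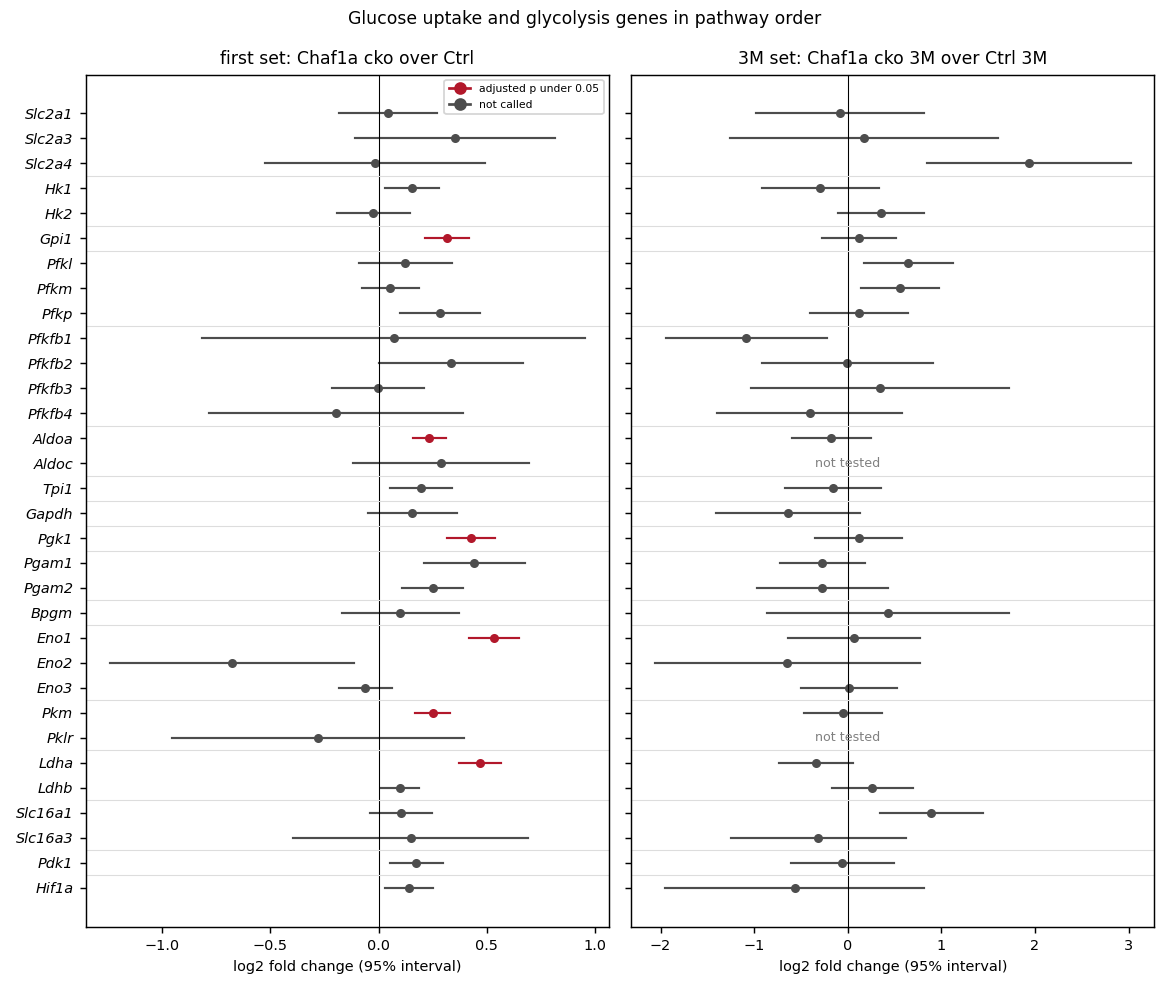
Log2 fold change (horizontal axis) of each member, Chaf1a cko over Ctrl in the first set (left) and Chaf1a cko 3M over Ctrl 3M in the 3M set (right), in pathway order from carrier to lactate export, with 95% intervals and red for an adjusted p under 0.05. The 6 red points lie right of 0 in the first set, and no point is red in the 3M set, where intervals are wider and the horizontal axis spans a larger range.

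Promoter sequences are shown for the 4 members with the smallest p in the first set, because they rose together and because HIF-1 and several other factors read short motifs in such stretches. Each is the 250 bases before the transcription start of the first promoter entry for the gene in RefSeq (GRCm38.p6), written 5′ to 3′ along the gene's strand. Capitals mark ACGTG or GCGTG on either strand (CACGT or CACGC when on the other strand), the core letters of the hypoxia response element. Where the palindrome CACGTG occurs, it counts as a match on each strand, and the overlapping letters are 1 run.
Ldha (chr7:46845554-46845803, + strand): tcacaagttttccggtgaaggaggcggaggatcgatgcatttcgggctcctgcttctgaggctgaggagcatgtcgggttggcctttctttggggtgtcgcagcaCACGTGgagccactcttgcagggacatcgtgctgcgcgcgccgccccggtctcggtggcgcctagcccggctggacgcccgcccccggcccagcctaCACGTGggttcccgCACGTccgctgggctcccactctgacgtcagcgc
Eno1 (chr4:150236458-150236707, + strand): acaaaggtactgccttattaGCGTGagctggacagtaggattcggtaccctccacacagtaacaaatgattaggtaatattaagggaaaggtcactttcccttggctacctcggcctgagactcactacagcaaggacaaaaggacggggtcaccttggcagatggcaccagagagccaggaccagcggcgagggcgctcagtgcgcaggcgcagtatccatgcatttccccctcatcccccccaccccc
Pgk1 (chrX:106186850-106187099, + strand): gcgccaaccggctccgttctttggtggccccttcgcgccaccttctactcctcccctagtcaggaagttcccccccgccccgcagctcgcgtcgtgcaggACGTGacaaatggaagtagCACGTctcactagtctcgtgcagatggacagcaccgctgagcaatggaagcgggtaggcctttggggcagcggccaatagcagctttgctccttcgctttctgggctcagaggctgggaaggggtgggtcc
Gpi1 (chr7:34230337-34230586, - strand): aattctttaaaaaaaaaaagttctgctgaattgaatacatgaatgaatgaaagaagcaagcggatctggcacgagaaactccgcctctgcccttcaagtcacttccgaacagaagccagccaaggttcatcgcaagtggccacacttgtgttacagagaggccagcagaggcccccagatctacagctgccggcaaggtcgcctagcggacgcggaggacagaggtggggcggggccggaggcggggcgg
The Ldha stretch held 5 matches, 4 of them in 2 copies of CACGTG, and Pgk1 held 2. Eno1 had 1 match at the upstream end, and Gpi1 had 0 in these bases. Of the entries not shown, entries 2 and 3 of Eno1, which overlap each other, held 2 matches each, and entry 2 of Ldha held 1. Of the 49 promoter entries found for 30 members, 34 (69.4%) held a match, as did 12679 of 32851 entries in the whole table (38.6%). Base composition was not compared. A match is a run of letters and does not show binding. Slc2a3 and Slc2a4 had no entry.

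The 3 glucose carriers, which let glucose cross the plasma membrane, did not pass the test in either set. Slc2a1 (GLUT1, the widespread basal carrier) was the most abundant by CPM in the first set, with 45.1, 51.2 and 52.95 CPM in libraries labelled Chaf1a cko, against 44.8, 47.6 and 52.3 CPM in Ctrl libraries (log2 fold change 0.04, SE 0.11, adjusted p = 0.943). Its groups overlapped closely. Slc2a4 (GLUT4, the insulin-responsive carrier of muscle and fat) had 25.7, 45.04 and 43.4 CPM in libraries labelled Chaf1a cko, against 44.6, 29.9 and 41.1 CPM in Ctrl libraries (log2 fold change -0.02, SE 0.22, adjusted p = 0.993). These also overlapped. Slc2a3 (GLUT3, best known from neurons) lay between 8.56 and 14.1 CPM.

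Slc2a4 was the member with the largest difference in the 3M set. It had 47.6, 132.9 and 104 CPM in libraries labelled Chaf1a cko 3M, against 38.8, 17.98 and 17.96 CPM in Ctrl 3M libraries. All 3 Chaf1a cko 3M libraries lay above all 3 Ctrl 3M libraries, by a narrow margin between the lowest of the first and the highest of the second. The SD was 43.4 CPM around a mean of 94.8 CPM in Chaf1a cko 3M, against 12.02 CPM around 24.9 CPM in Ctrl 3M. Relative to the mean, the spread was thus similar in both groups. The log2 fold change was 1.93 (SE 0.47, 95% interval 0.84 to 3.02), with an unadjusted p of 0.00385 and an adjusted p of 0.569 by edgeR, so it was not called. DESeq2's Wald test gave an adjusted p of 0.00986. Within the summed counts of the 3 carriers, Slc2a4 took 71.2, 83.1 and 83.4% in libraries labelled Chaf1a cko 3M, against 55.6, 50.5 and 47.2% in Ctrl 3M libraries, with no overlap (exact permutation test, two-sided p = 0.1, the smallest that 3 against 3 libraries allows). Slc2a1 accordingly took 17.8, 13.7 and 14.9% in libraries labelled Chaf1a cko 3M, against 40.7, 31.6 and 42.8% in Ctrl 3M libraries, again without overlap (exact permutation p = 0.1). The level of Slc2a1 itself overlapped, with 11.9, 21.99 and 18.6 CPM in libraries labelled Chaf1a cko 3M, against 28.4, 11.2 and 16.3 CPM in Ctrl 3M libraries (log2 fold change -0.09, adjusted p = 0.979). In the first set the Slc2a4 share was 30.2, 41.96 and 40.9% in libraries labelled Chaf1a cko, against 45.5, 34.2 and 40.3% in Ctrl libraries, and the groups overlapped.

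Marker sums of cardiomyocytes and macrophages also stood apart in the 3M set, though none of the 20 single markers was called. The summed level of 10 cardiomyocyte markers ranged from 50889 to 55252 CPM in Chaf1a cko 3M libraries and from 34468 to 43182 CPM in Ctrl 3M libraries, and 10 macrophage markers from 217 to 274 CPM in Chaf1a cko 3M and from 333 to 437 CPM in Ctrl 3M. In bulk RNA, fewer cells of a type and less RNA per cell cannot be told apart. Divided by the summed cardiomyocyte markers of each library, Slc2a4, Pfkl, Pfkm and Slc16a1 overlapped between the 3M groups. The folds of means were then 2.68, 1.11, 1.07 and 1.34. On that scale 0 of the 32 members, Aldoc at 0 counts among them, were higher and 13 lower in Chaf1a cko 3M without overlap. In the first set 20 were higher and 1 lower in Chaf1a cko. The ratio was taken for members alone, so no share over all genes stands beside these counts. The marker sum was itself higher in Chaf1a cko 3M, which lowers every such ratio, and lower in Chaf1a cko, which raises it. The part of cell composition in the 3M values of Slc2a4, Pfkl, Pfkm and Slc16a1 was not tested.

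**Figure D2:**
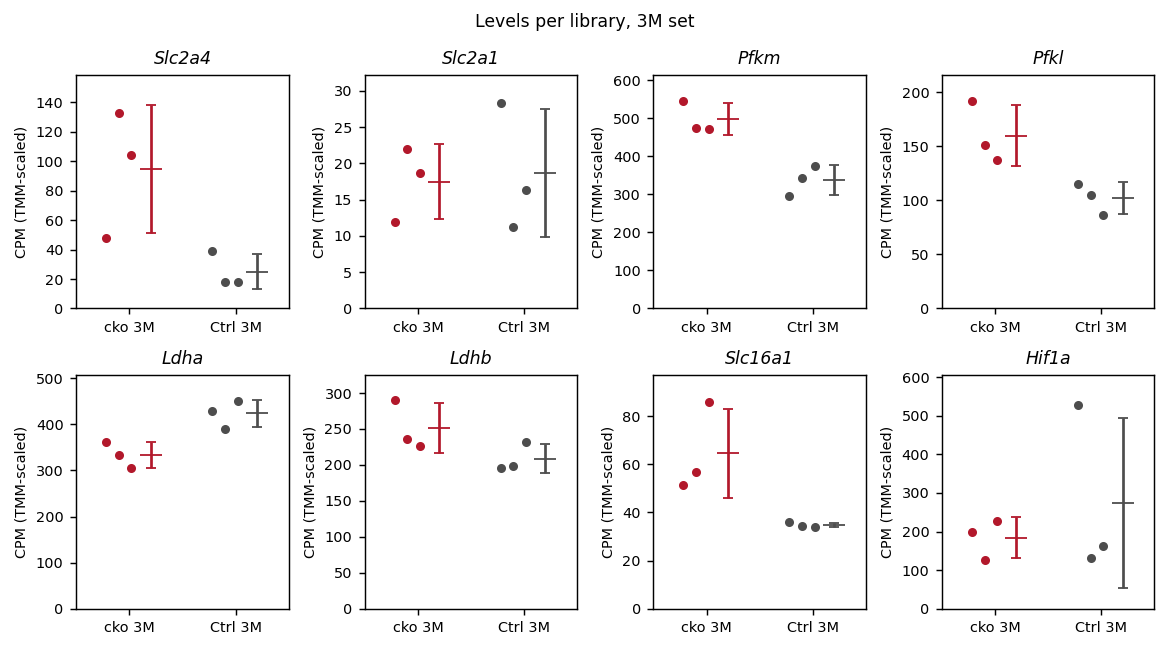
Levels of 8 members in the 3M set in CPM (vertical axes, from 0), with a point per library and bars for the mean and SD of 3 libraries, Chaf1a cko 3M in red on the left and Ctrl 3M in grey on the right. Slc2a4, Pfkm, Pfkl and Slc16a1 show every red point above every grey one, Ldha the reverse, and Hif1a a single grey point at 527 CPM far above the other 5 libraries.

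Hexokinases trap glucose in the cell by phosphorylating it. Hk1, the widespread form bound to mitochondria, was the more abundant in the first set, with 237, 227 and 237 CPM in libraries labelled Chaf1a cko, against 222, 214 and 194 CPM in Ctrl libraries (log2 fold change 0.16, SE 0.06, adjusted p = 0.347). The groups did not overlap, but the difference was not called. Hk2, the form regulated by insulin in muscle, had 81.1, 88.8 and 87.2 CPM in libraries labelled Chaf1a cko, against 82.1, 88.3 and 90.9 CPM in Ctrl libraries, with overlap (log2 fold change -0.02, adjusted p = 0.961). Within the 3M set Hk2 had 125, 120.4 and 90.7 CPM in libraries labelled Chaf1a cko 3M, against 93.4, 76.5 and 92.9 CPM in Ctrl 3M libraries, where the lowest Chaf1a cko 3M library fell among the Ctrl 3M libraries (log2 fold change 0.36, SE 0.20, adjusted p = 0.766). Hk1 overlapped in that set (log2 fold change -0.29, adjusted p = 0.859). The share of Hk2 in the summed counts of the pair was 65.2, 51.1 and 61.9% in libraries labelled Chaf1a cko 3M, against 49.8, 42.4 and 49.8% in Ctrl 3M libraries, which did not overlap (exact permutation p = 0.1, the smallest possible), and 26.8 ± 1.34% in libraries labelled Chaf1a cko and 29.4 ± 2.47% in Ctrl libraries (SD, n = 3 each), which did.

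Gpi1, the isomerase that turns glucose 6-phosphate into fructose 6-phosphate (chr7:34201327-34230336, - strand), rose in libraries labelled Chaf1a cko. It had 413, 438 and 400.5 CPM in libraries labelled Chaf1a cko, against 330.4, 343 and 331 CPM in Ctrl libraries. All Chaf1a cko libraries lay above all Ctrl libraries (log2 fold change 0.32, SE 0.05, adjusted p = 0.00131). Within the 3M set it had 452, 553 and 515 CPM in libraries labelled Chaf1a cko 3M, against 481, 435 and 483 CPM in Ctrl 3M libraries, which overlap (log2 fold change 0.12, SE 0.17, adjusted p = 0.911). The gene Gm26762 overlaps it on the opposite strand, and because no source used here states how strand was counted, reads of the pair cannot be told apart.

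Phosphofructokinase is the main control point of the pathway, and its muscle (Pfkm), liver (Pfkl) and platelet (Pfkp) subunits are separate genes. None was called in the first set. Pfkm, the most abundant, had 172, 182 and 181 CPM in libraries labelled Chaf1a cko, against 182, 171 and 162 CPM in Ctrl libraries, and the groups overlapped (log2 fold change 0.05, SE 0.06, adjusted p = 0.856). Pfkp had 118, 125 and 114 CPM in libraries labelled Chaf1a cko, against 114, 89.9 and 90.5 CPM in Ctrl libraries, with a gap of less than 1 CPM between the groups (log2 fold change 0.28, SE 0.09, adjusted p = 0.188). Its share of the 3 subunits' counts was 33.5 ± 0.537% in libraries labelled Chaf1a cko and 30.2 ± 1.89% in Ctrl libraries (SD, n = 3 each), without overlap (exact permutation p = 0.1). Pfkl overlapped (log2 fold change 0.12, adjusted p = 0.779).

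In the 3M set both Pfkm and Pfkl were higher in Chaf1a cko 3M without overlap, though neither passed the adjusted test. Pfkm had 546, 475 and 471 CPM in libraries labelled Chaf1a cko 3M, against 295, 343 and 375 CPM in Ctrl 3M libraries (log2 fold change 0.56, SE 0.18, adjusted p = 0.623). Pfkl had 192, 151 and 138 CPM in libraries labelled Chaf1a cko 3M, against 115, 105 and 86.5 CPM in Ctrl 3M libraries (log2 fold change 0.65, SE 0.21, adjusted p = 0.62). In CPM the gap between the groups was wider for Pfkm, which had the higher level, while the log2 fold change was slightly larger for Pfkl. Within the summed counts the share of Pfkm was 67.8 ± 0.662% in libraries labelled Chaf1a cko 3M and 66.1 ± 6.70% in Ctrl 3M libraries (SD, n = 3 each), which overlap, so the mix of subunits showed no shift that these libraries could resolve.

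The bifunctional enzymes Pfkfb1 to Pfkfb4 make and remove fructose 2,6-bisphosphate, the strongest activator of phosphofructokinase. Pfkfb3, a form with high kinase activity, was the most abundant in the first set by CPM, with 54.9, 60.3 and 57.3 CPM in libraries labelled Chaf1a cko, against 64.5, 52.2 and 56.3 CPM in Ctrl libraries, which overlap (log2 fold change -0.0034, SE 0.10, adjusted p = 0.997). Pfkfb2, the heart form, had 31.3, 23.4 and 25.9 CPM in libraries labelled Chaf1a cko, against 22.4, 18.2 and 23.3 CPM in Ctrl libraries, with a gap of under 1 CPM (log2 fold change 0.33, SE 0.16, adjusted p = 0.493). Pfkfb2 was the most abundant in the 3M set, at 384, 212 and 203 CPM in libraries labelled Chaf1a cko 3M, against 206, 175 and 419.5 CPM in Ctrl 3M libraries. The libraries of each group were far apart there (log2 fold change -0.0038, SE 0.39, adjusted p = 0.999), and without Ctrl 3M replicate 3, at 419.5 CPM, the log2 fold change was 0.48. Pfkfb1, first known from liver and muscle, had 19.5, 11.3 and 8.65 CPM in libraries labelled Chaf1a cko 3M, against 24.3, 20.7 and 38.6 CPM in Ctrl 3M libraries, lower in Chaf1a cko 3M with a gap of about 1 CPM (log2 fold change -1.09, SE 0.38, adjusted p = 0.65). Pfkfb4 overlapped in both sets, and in the first set Pfkfb1 did as well.

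Aldolase cleaves the hexose into triose phosphates, and Aldoa, the muscle form (chr7:126795234-126800994, - strand), rose in libraries labelled Chaf1a cko. It had 758, 773 and 774 CPM in libraries labelled Chaf1a cko, against 666, 636 and 656 CPM in Ctrl libraries. The libraries within each group were close together and the groups apart (log2 fold change 0.24, SE 0.04, adjusted p = 0.00168). Its 3M values were 738, 823 and 825 CPM in libraries labelled Chaf1a cko 3M, against 808, 828 and 1059 CPM in Ctrl 3M libraries, with overlap (log2 fold change -0.18, SE 0.19, adjusted p = 0.871). Fam57b and Gm44856 overlap it on the opposite strand. Aldoc, the brain form, was low in the first set, with 14.01, 12.3 and 14.4 CPM in libraries labelled Chaf1a cko, against 10.4, 12.05 and 10.9 CPM in Ctrl libraries (log2 fold change 0.29, adjusted p = 0.69), and at 0 counts in the 3M set. Tpi1, which interconverts the triose phosphates, had 188, 197 and 177 CPM in libraries labelled Chaf1a cko, against 177, 165 and 148 CPM in Ctrl libraries, without overlap but not called (log2 fold change 0.20, SE 0.07, adjusted p = 0.28). Its 3M values were 223, 164 and 179 CPM in libraries labelled Chaf1a cko 3M, against 171, 196 and 264 CPM in Ctrl 3M libraries, which overlap (log2 fold change -0.16, adjusted p = 0.909).

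Gapdh, the dehydrogenase that makes the first NADH of the pathway, had 53.5, 62.1 and 57.4 CPM in libraries labelled Chaf1a cko, against 49.7, 53.1 and 52.5 CPM in Ctrl libraries (log2 fold change 0.16, SE 0.10, adjusted p = 0.661). The groups were separated by less than 1 CPM. These values are uncertain. Per length they were 38.6 CPM per kb in Chaf1a cko and 34.6 CPM per kb in Ctrl, well under the 421 CPM per kb in Chaf1a cko and 358 CPM per kb in Ctrl of Aldoa, and 78 annotated genes, 75 of them pseudogenes, match Gapdh at 95% identity or more over at least 200 bases. Of the 3 such genes that the tables list, Gm12070 had 0, 65.3 and 69.2 CPM in libraries labelled Chaf1a cko, against 54.6, 51.6 and 49.98 CPM in Ctrl libraries. It was thus listed at 0 in 1 library and present in the other 5. Of the 3M libraries, Gm12070 had counts in 2 libraries, at 52.05 CPM in Chaf1a cko 3M replicate 2 and 48.6 CPM in Ctrl 3M replicate 2, and 0 in the other 4. Gapdh itself had 45.5, 39.8 and 44.3 CPM in libraries labelled Chaf1a cko 3M, against 70.00, 34.7 and 97.1 CPM in Ctrl 3M libraries, which overlap (log2 fold change -0.64, SE 0.34, adjusted p = 0.755).

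Pgk1, which makes the first ATP of the payoff phase (chrX:106187100-106203699, + strand), rose in libraries labelled Chaf1a cko. It had 329, 315 and 301 CPM in libraries labelled Chaf1a cko, against 237, 226 and 238 CPM in Ctrl libraries. Every Chaf1a cko library exceeded every Ctrl library by more than the spread within either group (log2 fold change 0.43, SE 0.05, adjusted p = 0.000123). For 3M the values were 104, 92.9 and 76.7 CPM in libraries labelled Chaf1a cko 3M, against 99.5, 76.1 and 77.04 CPM in Ctrl 3M libraries, which overlap (log2 fold change 0.12, SE 0.21, adjusted p = 0.927). Pgk1 lies on the X chromosome. The summed level of 4 Y-linked genes was 133.9, 122 and 115 CPM in Chaf1a cko libraries, against 61.1, 51.97 and 50.02 CPM in Ctrl libraries, and Xist had 323, 275 and 269.6 CPM in libraries labelled Chaf1a cko, against 589, 620.2 and 290.5 CPM in Ctrl libraries. The Y-linked sums did not overlap between the groups, and the Xist values did, with Ctrl replicate 3 inside the range of Chaf1a cko. Of these 5 sex-linked genes, 4 were called as higher and 0 as lower. The Y-linked level thus differed along with the genotype label in the first set, and every first-set library held both Xist and Y-linked counts. In the 3M set the Y-linked sums were 354.6 to 645.8 CPM and Xist lay at 0 to 3.97 CPM. The other 5 called members are autosomal, but a difference in sex, or in the mix of sexes, between the groups could affect them too. Whether a first-set library holds RNA of animals of both sexes was not tested. The part of sex in the differences of Pgk1 and of the other called members was not tested.

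**Figure D3:**
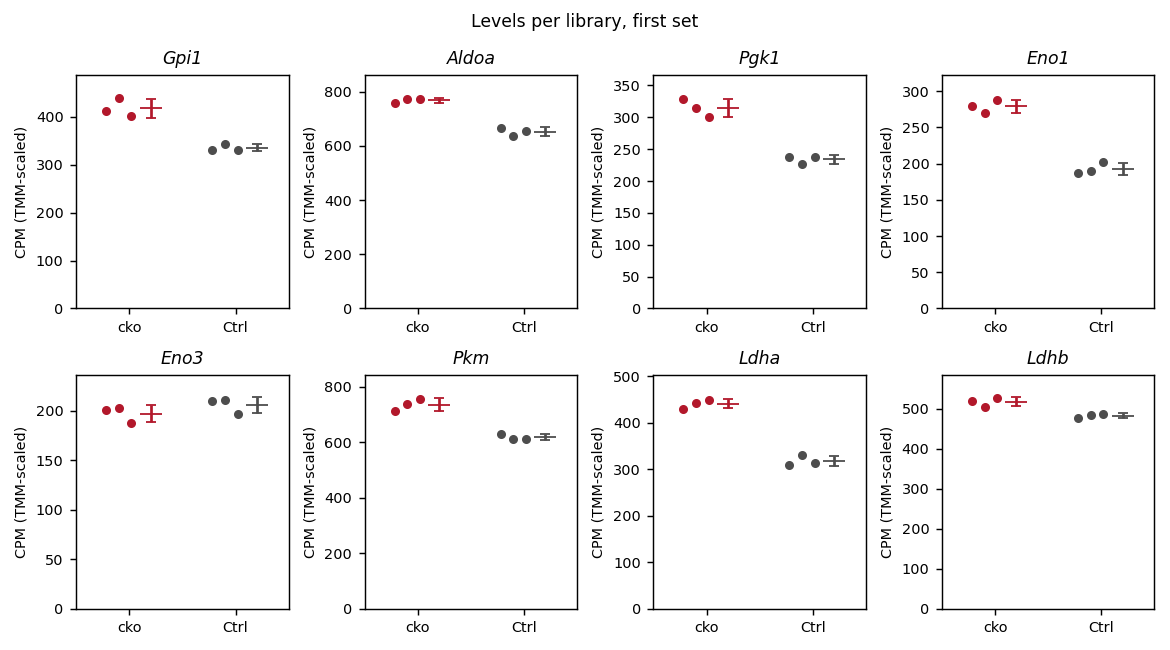
Levels of 8 members in the first set in CPM (vertical axes, from 0), with a point per library and bars for the mean and SD of 3 libraries, Chaf1a cko in red on the left and Ctrl in grey on the right. Gpi1, Aldoa, Pgk1, Eno1, Pkm and Ldha show separate groups, Eno3 overlaps, and Ldhb has a small gap and was not called.

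Phosphoglycerate mutase moves the phosphate group within phosphoglycerate. Pgam2, the muscle form, was the more abundant and had 239, 254 and 260.0 CPM in libraries labelled Chaf1a cko, against 235, 194 and 205 CPM in Ctrl libraries (log2 fold change 0.25, SE 0.07, adjusted p = 0.0994). The gap between the groups was about 4 CPM, and the difference was not called. Pgam1, the widespread form, had 54.2, 47.9 and 47.4 CPM in libraries labelled Chaf1a cko, against 36.2, 38.8 and 35.05 CPM in Ctrl libraries, without overlap, and just missed the threshold (log2 fold change 0.44, SE 0.11, adjusted p = 0.0671). DESeq2's Wald test called both as higher, Pgam2 with an adjusted p of 0.0276. For 3M, Pgam2 had 363, 225 and 349 CPM in libraries labelled Chaf1a cko 3M, against 305, 276 and 549 CPM in Ctrl 3M libraries (log2 fold change -0.27, SE 0.31, adjusted p = 0.88). Its groups overlapped, and without Ctrl 3M replicate 3, the highest library, the log2 fold change was 0.10. Pgam1 overlapped as well (log2 fold change -0.27, adjusted p = 0.819).

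Bpgm makes 2,3-bisphosphoglycerate, chiefly in red cells, where that compound loosens the hold of haemoglobin on oxygen. It had 38.5, 37.2 and 39.4 CPM in libraries labelled Chaf1a cko, against 32.9, 32.3 and 42.04 CPM in Ctrl libraries, which overlap (log2 fold change 0.10, SE 0.13, adjusted p = 0.874). The 3M values were 19.5, 23.97 and 5.09 CPM in libraries labelled Chaf1a cko 3M, against 13.9, 6.98 and 15.2 CPM in Ctrl 3M libraries (log2 fold change 0.43, SE 0.56, adjusted p = 0.898). The summed level of 9 red cell markers in those libraries was 4043, 3257 and 457 CPM in Chaf1a cko 3M, against 709, 454 and 1046 CPM in Ctrl 3M. Chaf1a cko 3M replicate 3 was the lowest of its group in both measures. The part of red cells in the Bpgm values was not tested.

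Enolase was the step whose isoenzyme shares differed by the most percentage points in the first set. Eno1, the widespread alpha form (chr4:150236708-150248879, + strand), had 279.7, 270.2 and 288 CPM in libraries labelled Chaf1a cko, against 187, 189.7 and 203 CPM in Ctrl libraries. The lowest Chaf1a cko library lay far above the highest Ctrl library (log2 fold change 0.53, SE 0.05, adjusted p = 2.17e-05), and of the 32 members this was the largest log2 fold change among those called. Eno3, the muscle beta form, had 201, 203 and 188 CPM in libraries labelled Chaf1a cko, against 209.7, 211 and 197 CPM in Ctrl libraries, which overlap (log2 fold change -0.06, SE 0.06, adjusted p = 0.822). Eno1 took 57.7, 56.6 and 59.99% in libraries labelled Chaf1a cko, against 46.3, 46.6 and 49.9% in Ctrl libraries, of the counts of the 3 enolases (exact permutation p = 0.1, the smallest possible). Eno3 took 41.00 ± 1.78% in libraries labelled Chaf1a cko and 50.7 ± 2.01% in Ctrl libraries (SD, n = 3 each), and these did not overlap either. Per kb of exon the levels were 109.8 CPM per kb in Chaf1a cko and 75.8 CPM per kb in Ctrl for Eno1 and 126 CPM per kb in Chaf1a cko and 131.4 CPM per kb in Ctrl for Eno3.

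Eno1b, a near-identical copy of Eno1 with which reads may be shared, was also called as higher. It had 70.7, 80.2 and 80.4 CPM in libraries labelled Chaf1a cko, against 59.4, 48.5 and 51.9 CPM in Ctrl libraries (log2 fold change 0.54, adjusted p = 0.0081). The 2 genes summed to 350.4, 350.4 and 369 CPM in Chaf1a cko libraries, against 246, 238 and 254 CPM in Ctrl libraries, so the sum did not overlap either (fold of means 1.45). Eno2, the neuronal gamma form, was the only member lower in Chaf1a cko without overlap in the first set, with 3.85, 4.41 and 4.73 CPM in libraries labelled Chaf1a cko, against 7.49, 6.15 and 7.18 CPM in Ctrl libraries, and it was not called (log2 fold change -0.68, SE 0.27, adjusted p = 0.374). At 1.55 CPM per kb in Chaf1a cko and 2.48 CPM per kb in Ctrl it lay below the 95th percentile of the chemoreceptor genes, 2.79 CPM per kb.

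In the 3M set Eno3 was the most abundant enolase, with 487, 337 and 384 CPM in libraries labelled Chaf1a cko 3M, against 359.7, 343 and 494 CPM in Ctrl 3M libraries (log2 fold change 0.01, SE 0.22, adjusted p = 0.993). Eno1 had 92.8, 78.7 and 177 CPM in libraries labelled Chaf1a cko 3M, against 109, 129 and 94.1 CPM in Ctrl 3M libraries (log2 fold change 0.07, SE 0.31, adjusted p = 0.979). Both overlapped, and Eno1 was highest in Chaf1a cko 3M replicate 3, without which its log2 fold change was -0.37. The Eno1 share was 21.99 ± 8.16% in libraries labelled Chaf1a cko 3M and 21.96 ± 5.59% in Ctrl 3M libraries (SD, n = 3 each), so the difference seen in the first set had no counterpart beyond the spread there.

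**Figure D4:**
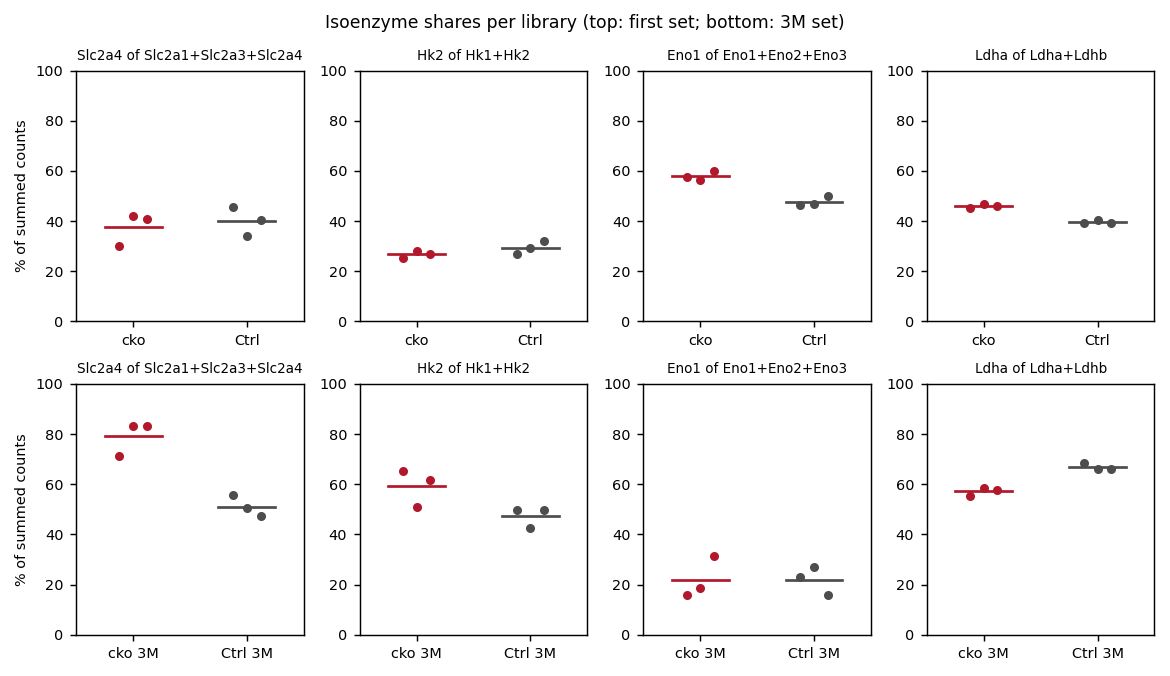
Share (%, vertical axis from 0 to 100) of 1 isoenzyme in the summed counts of its step, a point per library and a line at the mean of 3, for the first set (top) and the 3M set (bottom), with Chaf1a cko in red left of Ctrl in grey. The Eno1 and Ldha shares are higher in Chaf1a cko in the top row, and in the bottom row the Slc2a4 and Hk2 shares are higher and the Ldha share lower in Chaf1a cko 3M.

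Pkm, the pyruvate kinase of muscle and most other tissues (chr9:59656576-59679372, + strand), rose in libraries labelled Chaf1a cko. It had 712, 739 and 758 CPM in libraries labelled Chaf1a cko, against 630.0, 613 and 614 CPM in Ctrl libraries. The groups did not overlap (log2 fold change 0.25, SE 0.04, adjusted p = 0.0015). Within the 3M set it had 517, 520.0 and 425 CPM in libraries labelled Chaf1a cko 3M, against 484, 468 and 565 CPM in Ctrl 3M libraries, with overlap (log2 fold change -0.05, SE 0.18, adjusted p = 0.969). The tables count the gene as a whole, so its splice forms, PKM1 and PKM2, cannot be told apart. Pklr, the liver and red cell form, lay at 5.23, 3.19 and 3.60 CPM in libraries labelled Chaf1a cko, against 5.35, 3.83 and 5.38 CPM in Ctrl libraries (log2 fold change -0.28, adjusted p = 0.859).

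At the lactate dehydrogenase step the 2 sets stood in opposite order. Ldha, the form that favours making lactate from pyruvate (chr7:46842274-46855627, + strand), had 431, 444 and 449 CPM in libraries labelled Chaf1a cko, against 310.3, 331 and 314 CPM in Ctrl libraries. It rose in libraries labelled Chaf1a cko with the smallest p of the 32 members (log2 fold change 0.47, SE 0.05, adjusted p = 1.36e-05). Its 3M values were 362, 333 and 306 CPM in libraries labelled Chaf1a cko 3M, against 429, 391 and 451 CPM in Ctrl 3M libraries, lower in all 3 Chaf1a cko 3M libraries without overlap, but not called (log2 fold change -0.34, SE 0.17, adjusted p = 0.744). The difference of the 2 effects, 3M set minus first set, was -0.78 on the log2 scale (SE 0.14, 95% interval -1.09 to -0.46), with an unadjusted p of 2e-04 and an adjusted p of 0.101 over 22803 genes by edgeR. It was thus not called in that fit, in which 0.0658% of all genes were, whereas limma's voom with a weight per set gave an adjusted p of 0.0278. The edgeR fit estimated 1 spread per gene over both sets, though libraries varied more in the 3M set. Its SE of 0.14 was below the 0.17 of the 3M effect alone, so its interval and p may be too small.

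Ldhb, the heart form that favours turning lactate into pyruvate, had 519.7, 505 and 527 CPM in libraries labelled Chaf1a cko, against 476, 485 and 487 CPM in Ctrl libraries, without overlap but not called (log2 fold change 0.10, SE 0.04, adjusted p = 0.401). For 3M the values were 291, 236 and 226 CPM in libraries labelled Chaf1a cko 3M, against 196, 199 and 232 CPM in Ctrl 3M libraries (log2 fold change 0.26, SE 0.19, adjusted p = 0.809), which overlap. The Ldha share of the pair was 45.3, 46.8 and 45.97% in libraries labelled Chaf1a cko, against 39.4, 40.6 and 39.1% in Ctrl libraries. Its 3M counterpart was 55.5, 58.6 and 57.5% in libraries labelled Chaf1a cko 3M, against 68.6, 66.3 and 66.1% in Ctrl 3M libraries. Both sets showed separate groups, in opposite order (exact permutation p = 0.1 in each).

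Of the lactate carriers, Slc16a1 (MCT1, which takes lactate up or lets it out along its gradient) was the more abundant, with 144, 169 and 148 CPM in libraries labelled Chaf1a cko, against 144, 143 and 143 CPM in Ctrl libraries (log2 fold change 0.10, SE 0.07, adjusted p = 0.684). Only Chaf1a cko replicate 2 stood clearly above the rest. Among 3M libraries Slc16a1 had 51.3, 56.9 and 85.7 CPM in libraries labelled Chaf1a cko 3M, against 35.9, 34.5 and 34.1 CPM in Ctrl 3M libraries. The 3 Ctrl 3M libraries lay within 2 CPM of each other, and every Chaf1a cko 3M library was higher (log2 fold change 0.89, SE 0.24, adjusted p = 0.589), though the gene was not called. Its share of the 2 carriers' counts was 91.5 ± 2.06% in libraries labelled Chaf1a cko 3M and 82.96 ± 3.24% in Ctrl 3M libraries (SD, n = 3 each), without overlap (exact permutation p = 0.1). Slc16a3 (MCT4, the export form of glycolytic muscle) was low and overlapped in both sets.

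Pdk1, which inhibits pyruvate dehydrogenase and so keeps pyruvate out of the Krebs cycle, had 166, 172 and 174 CPM in libraries labelled Chaf1a cko, against 150.3, 148 and 155 CPM in Ctrl libraries. The groups did not overlap, and the gene was not called (log2 fold change 0.18, SE 0.06, adjusted p = 0.241). The 3M values were 78.4, 61.5 and 43.8 CPM in libraries labelled Chaf1a cko 3M, against 58.6, 66.2 and 66.5 CPM in Ctrl 3M libraries, with overlap (log2 fold change -0.06, adjusted p = 0.976). Hif1a had 269, 258 and 273 CPM in libraries labelled Chaf1a cko, against 253, 238 and 233 CPM in Ctrl libraries, again without overlap and not called (log2 fold change 0.14, SE 0.05, adjusted p = 0.335). Its 3M values were 199, 125 and 228 CPM in libraries labelled Chaf1a cko 3M, against 527, 130.96 and 162 CPM in Ctrl 3M libraries (log2 fold change -0.57, SE 0.57, adjusted p = 0.868). Ctrl 3M replicate 1 was far above the other 5 libraries, and without it the log2 fold change was 0.33.

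Per kb of exon, the members spanned a wide range in either set. In the first set Aldoa averaged 421 CPM per kb in Chaf1a cko and 358 CPM per kb in Ctrl, and Ldhb 397 CPM per kb in Chaf1a cko and 370.3 CPM per kb in Ctrl, so Aldoa was the highest in Chaf1a cko and Ldhb in Ctrl. Pgam2 came next in both groups, at 299 CPM per kb in Chaf1a cko and 251 CPM per kb in Ctrl. Averages of 6 members, namely Slc2a3, Pfkfb1, Pfkfb4, Eno2, Pklr and Slc16a3, were under 2.79 CPM per kb over the first set, the 95th percentile of the chemoreceptor genes, so their first-set values cannot be separated from background reads. The 6 called members all lay above it, the lowest being Eno1 at 109.8 CPM per kb in Chaf1a cko and 75.8 CPM per kb in Ctrl. Per kb in the 3M set Aldoa was followed by Pgam2 at 372 CPM per kb in Chaf1a cko 3M and 449 CPM per kb in Ctrl 3M. Levels of the 2 sets are set side by side here without a test, since set, table and background differ together.

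**Figure D5:**
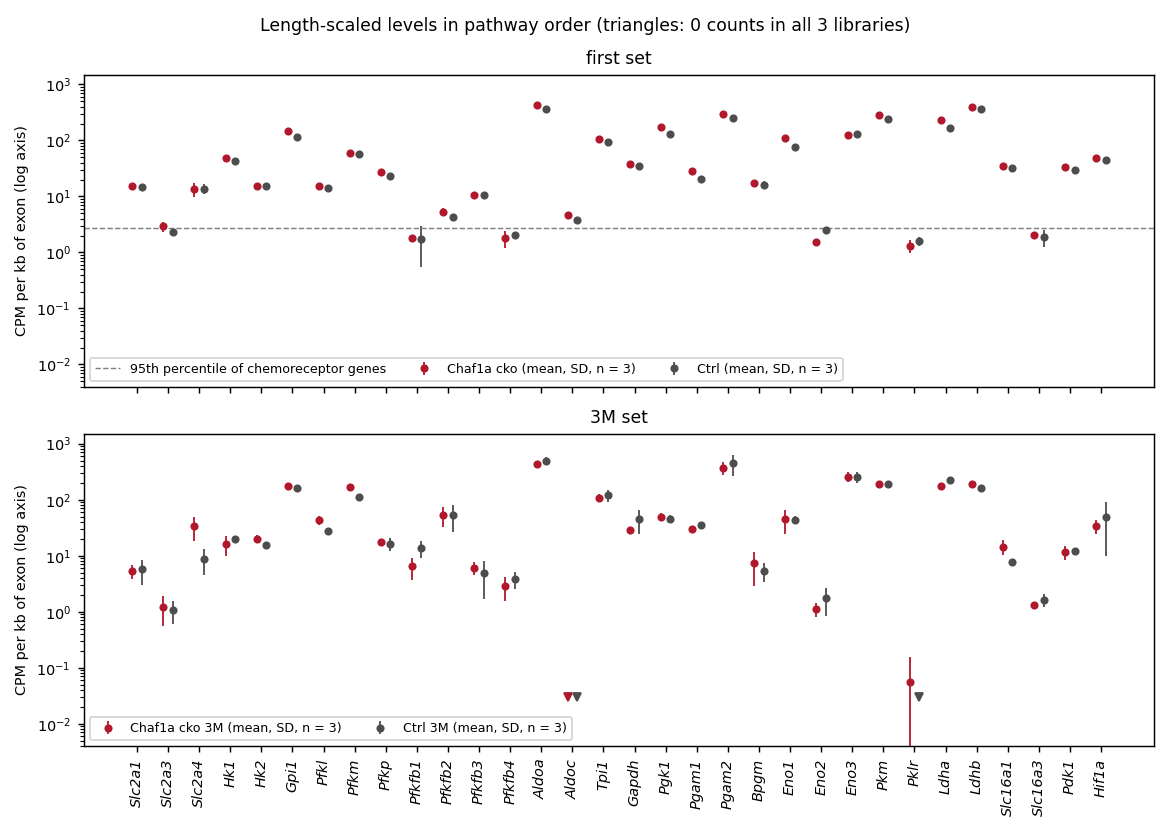
Mean level per kb of exon (CPM per kb, log axis) of the 32 members in pathway order with the SD of 3 libraries, Chaf1a cko in red left of Ctrl in grey, for the first set (top, with the 95th percentile of the chemoreceptor genes dashed) and the 3M set (bottom). Aldoa is at or near the top in both, and Aldoc falls to 0 counts in the 3M set.

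Marker sums of other cell types and of cycling cells also stood apart in the first set, where no marker was at 0. The summed level of 15 cycling cell markers was 1867 to 1905 CPM in Chaf1a cko libraries, against 1473 to 1501 CPM in Ctrl libraries, and 5 of the 15 were called as higher. The 10 fibroblast markers summed to 3164 to 3202 CPM in Chaf1a cko and 3778 to 3878 CPM in Ctrl, with 5 called as lower. The 10 cardiomyocyte markers summed to 92748 to 93337 CPM in Chaf1a cko and 97925 to 101246 CPM in Ctrl, with 2 called as higher and 4 as lower. The 10 smooth muscle and pericyte markers summed to 1601 to 1616 CPM in Chaf1a cko and 1287 to 1363 CPM in Ctrl, with 2 called as higher and 1 as lower. Their median log2 fold change was 0.04. The 9 red cell markers summed to 2346 to 2373 CPM in Chaf1a cko and 1705 to 2275 CPM in Ctrl, with 0 called. The sums of endothelial, macrophage, skeletal muscle and neuronal markers overlapped. The part of cell composition and of cycling cells in the differences was not tested.

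Calls in the first set were not confined to the members, and those in neighbouring routes follow by list. Of all genes tested 1.18% were called, 0.74% as higher and 0.435% as lower. Of 23 other glycolytic enzymes and carriers none was called. Among them Bsg (basigin, the partner that brings lactate carriers to the membrane) had 313, 342 and 329.7 CPM in libraries labelled Chaf1a cko, against 301, 291 and 287 CPM in Ctrl libraries (log2 fold change 0.16, SE 0.05, adjusted p = 0.176). Among 14 genes of pyruvate entry to mitochondria, none rose and Pdk4, the pyruvate dehydrogenase kinase induced by fasting, fell. It had 71.4, 73.9 and 79.4 CPM in libraries labelled Chaf1a cko, against 114, 96.9 and 95.8 CPM in Ctrl libraries (log2 fold change -0.45, SE 0.09, adjusted p = 0.0118). Of 24 genes of glycogen metabolism, Gyg (glycogenin, which primes glycogen) rose, with 130.9, 115 and 135 CPM in libraries labelled Chaf1a cko, against 84.9, 84.2 and 86.8 CPM in Ctrl libraries (log2 fold change 0.57, SE 0.08, adjusted p = 0.000336). In both, the groups did not overlap.

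The cytosolic NADH shuttles, which carry the electrons of the Gapdh step into mitochondria, had 2 of 10 genes called as higher. That share is close to the 18.8% of the members, where 0.74% of all genes tested were called as higher. Mdh1, the cytosolic malate dehydrogenase, had 603, 600.1 and 589.6 CPM in libraries labelled Chaf1a cko, against 539, 531 and 473 CPM in Ctrl libraries (log2 fold change 0.22, SE 0.05, adjusted p = 0.031). Its mitochondrial partner Mdh2 had 616, 639.9 and 607 CPM in libraries labelled Chaf1a cko, against 568, 535 and 550.4 CPM in Ctrl libraries (log2 fold change 0.17, SE 0.04, adjusted p = 0.047). Neither overlapped. None of 16 genes of the pentose phosphate and hexosamine routes and none of 6 gluconeogenic genes was called, with Oga, which removes sugar tags from proteins, at a log2 fold change of 0.08, SE 0.06, adjusted p = 0.729 and Pck2, the mitochondrial PEP carboxykinase, at a log2 fold change of 0.18, SE 0.15, adjusted p = 0.779. Of 22 genes that control glucose uptake, 2 fell, beside 0.435% of all genes tested. Irs2, an adaptor of the insulin receptor, had 184, 189 and 184 CPM in libraries labelled Chaf1a cko, against 228, 211 and 234 CPM in Ctrl libraries (log2 fold change -0.27, SE 0.06, adjusted p = 0.023). Myc, a growth-linked transcription factor that also drives glycolytic genes, had 62.2, 66.7 and 54.3 CPM in libraries labelled Chaf1a cko, against 91.9, 87.1 and 71.7 CPM in Ctrl libraries (log2 fold change -0.45, SE 0.10, adjusted p = 0.0398).

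The HIF pathway was examined because its targets include many of the members. None of its 11 other components was called, and Epas1 (the alpha subunit of HIF-2) had 423, 441 and 456 CPM in libraries labelled Chaf1a cko, against 462, 453 and 452 CPM in Ctrl libraries (log2 fold change -0.05, SE 0.04, adjusted p = 0.795). Of 24 measured HIF targets outside glycolysis, 4 were higher and 3 lower in Chaf1a cko without overlap. Of all genes tested 8.33% were higher and 7.85% lower in that way. Only Fam162a, a mitochondrial protein gene induced by low oxygen, was called, where 0.74% of all genes tested were called as higher. It had 97.6, 93.05 and 88.99 CPM in libraries labelled Chaf1a cko, against 57.2, 53.3 and 57.2 CPM in Ctrl libraries, far apart (log2 fold change 0.74, SE 0.08, adjusted p = 5.92e-05). Vegfa, the vessel growth factor and a standard target, is given though it was not called, and it overlapped (log2 fold change -0.08, SE 0.06, adjusted p = 0.729). None of the 9 lists held a called gene in edgeR's test of the 3M set. Their genes with the highest mean CPM there were Bsg, Pdk4, Pygm, Ogt, Mdh2, Pck2, Txnip, Epas1 and Vegfa, with log2 fold changes of -0.44 (Vegfa) to 0.53 (Pdk4).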

How the data were processed

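RNA of mouse heart cardiomyocytes was measured in 12 libraries, made per the labels' protocols with TRIzol and a stranded kit with ribosomal RNA depletion. The authors deposited whole-number counts per gene symbol and library, without normalization, in 2 tables of 6 libraries. Per the submitters' processing notes, FastQC, Trimmomatic, HISAT2 and mm10 were used. The program, annotation and strand rule behind the counts were not given in the sources used here, and reads shared by near-identical or overlapping genes may be split or dropped.

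Libraries were grouped by their titles. With edgeR 4.0.16 (R 4.3.3), each table had its own fit: filterByExpr (minimum count 10, minimum total 15), TMM scaling, robust glmQLFit and two-sided glmQLFTest, with Benjamini-Hochberg adjustment over all genes kept and a threshold of 0.05. Whether an effect differed between the sets was tested as a set-by-genotype interaction over 12 libraries. CPM values are TMM-scaled. Standard errors and intervals cover counting error and the spread between libraries. Shares of counts were compared by exact permutation over libraries. Lengths are exon unions of GENCODE M21, and 25041 of 25239 symbols (99.2%) matched RefSeq GRCm38.p6, which gave positions and promoters. DESeq2 1.42.0, limma 3.58.1, other scalings and filters, a replicate block and leaving out each library were alternatives. The fits were also run on simulated counts with 200 genes changed, and that outcome is not reported here.

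The members, the related lists and the marker lists were chosen with earlier results of these data known. Values per library are given for members called in either table and for the isoenzyme of each step with the highest mean CPM, and others where a comparison needs them. Of a related list, up to 4 called genes were named, or the gene with the highest mean CPM. Libraries were not paired by replicate number in the main fits. Same-numbered libraries' deviations correlated weakly, at -0.05 to 0.05 in the first set and 0.03 to 0.08 in the 3M set. No 2 libraries of a group agreed within counting noise.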

Additional observations from a re-analysis of the deposited data

Results flagged for a closer look

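The effect on Ldha differed between the sets without passing the adjusted test. The log2 fold change was -0.34 in the 3M set and 0.47 in the first set, a difference of -0.78 (SE 0.14, adjusted p = 0.101 by edgeR's quasi-likelihood test of the interaction). That fit shared 1 spread per gene between the sets. The SE of the difference lay below the 0.17 of the 3M effect alone and may be too small. Libraries stood in opposite order, with all 3 Chaf1a cko 3M libraries below the Ctrl 3M ones and all 3 Chaf1a cko libraries above the Ctrl ones. The adjusted p was 0.0278 with limma's voom, and Ldha was also called without Ctrl 3M replicate 2. The 2 tables also differ in depth, background reads and spread. Xist was at 0 to 3.97 CPM in the 3M libraries and at 269.6 to 620.2 CPM in the first set, and 15 cycling cell markers summed to 27.3 to 66.9 CPM in the 3M libraries and 1473 to 1905 CPM in the first set. These differences and the set cannot be told apart.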

How the results depend on the processing

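The 6 members called in the first set were called in every alternative run. DESeq2's Wald test called 8 (Pgam1 and Pgam2 added), a filter of 10 CPM 7 (Pgam2 added), and without Ctrl replicate 1 there were 8 (Pfkp and Pgam2 added). Leaving out 1 library at a time gave 6 to 8 members in the first set and 0 for 3M. In the 3M set only DESeq2's Wald test called a member, 1 (Slc2a4). For the difference between the sets, limma's voom with quality weights per set gave 1 member (Ldha), and leaving out 1 library gave 0 to 1. Over all genes, DESeq2's Wald test called 479 in the first set (308 higher, 171 lower) and 72 in the 3M set, against 270 and 2 in edgeR's. Leaving out 1 library left 128 to 201 genes in the first set and 0 to 5 in the 3M set, where no filter gave 6. With the replicate number as a block, 192 genes and 6 members were called in the first set and 0 genes and 0 members in the 3M set. In the 3M set each library's deviations correlated best with those of its own number in the other group (0.03 to 0.08), and in the first set they did not. In the first set the log2 fold changes of the 6 called members kept their direction in these alternatives, and those of Slc2a1 and Pfkfb3, near 0, changed sign in some. In the 3M set leaving out 1 library turned the sign and moved the value by more than its SE for Eno1 (-0.37), Hif1a (0.33), Pfkfb2 (0.48) and Pgam2 (0.10), none of them called. Gapdh (-0.28), Slc16a1 (0.64) and Slc2a4 (2.40) moved by more than their SE and kept their sign. The 3M spread limits what could be called, with SEs of 0.17 to 0.63 on the log2 scale against 0.04 to 0.42 in the first set. The causes of these shifts were not tested.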

Other observations

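Of 24 glycogen genes, 5 were higher and 2 lower in Chaf1a cko 3M without overlap, where 7.21% of all genes tested were higher and 6.89% lower, and 0 were called. The 3 described here were chosen after their values were seen. Pygm, the muscle glycogen phosphorylase, had 424, 419.9 and 346 CPM in libraries labelled Chaf1a cko 3M, against 233, 286 and 310.2 CPM in Ctrl 3M libraries (log2 fold change 0.52, SE 0.19, adjusted p = 0.684 by edgeR's quasi-likelihood test). Pygb, the brain form of the enzyme, had 261, 341 and 338 CPM in libraries labelled Chaf1a cko 3M, against 175, 229 and 207 CPM in Ctrl 3M libraries (log2 fold change 0.62, SE 0.20, adjusted p = 0.62). Ugp2, which makes the UDP-glucose that builds glycogen, had 56.5, 71.3 and 72.9 CPM in libraries labelled Chaf1a cko 3M, against 119.8, 85.5 and 105 CPM in Ctrl 3M libraries, lower in Chaf1a cko 3M without overlap (log2 fold change -0.63, SE 0.21, adjusted p = 0.631). The summed cardiomyocyte markers of the same libraries, given above, were also higher in Chaf1a cko 3M, and their part was not tested. In the first set Pygm (log2 fold change -0.01, SE 0.05, adjusted p = 0.967) and Pygb (log2 fold change 0.11, SE 0.05, adjusted p = 0.455) overlapped.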
